A study of Homo sapiens with 16 samples.

Results

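DNA replication and G1/S genes encode the proteins that prepare, open and copy the genome and that carry a cell from the G1 phase of its cycle into S phase. The 46 genes described here were chosen by name, for these roles, among the 19898 genes of the deposited table. Earlier results of these data were known when they were chosen. All 46 were found, and all passed the filter on low values (a normalised read count of at least 10 in at least 4 libraries), as did 16984 genes in all. The RNA came from SH-SY5Y, an established line from a human neuroblastoma whose cells can take on neuronal features. All cultures had been differentiated for 15 days toward what the labels call dopamine-like neurons, in 2D on a flat dish or in 3D inside a scaffold of silk and collagen. From day 13, cultures of each kind were left untreated or were exposed for 48 hours to 1 mM 1-methyl-4-phenylpyridinium (MPP), which blocks complex I of the mitochondrial respiratory chain. The 4 groups were untreated 2D, MPP-treated 2D, untreated 3D and MPP-treated 3D, with 4 libraries each. The question was how the culture surroundings change the features of Parkinson's disease that the toxin brings out. A single tumour line stands for neurons here. Cells in 2D were detached and pelleted while scaffolds were frozen whole, so culture format and harvest cannot be told apart. The labels do not say that replicates were separate cultures, so p-values measure the spread between these libraries, which may be technical.

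In G1, retinoblastoma proteins hold back the E2F transcription factors until cyclin D and cyclin E kinases phosphorylate them. Freed E2F factors then turn on the replication genes, most of which peak around the G1/S boundary. Origins are licensed in G1, when the origin recognition complex, CDC6 and CDT1 load rings of MCM2 to MCM7 onto DNA. At the start of S phase CDC45, MCM10 and the GINS complex turn the rings into moving helicases, and polymerases, the PCNA clamp and its RFC loader copy the strands. Cells that leave the cycle to become neurons normally turn this set down, while a neuroblastoma line such as SH-SY5Y keeps a share of cycling cells.

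The promoters were searched for the letters that E2F factors favour, since a shared sequence is one thing the choice of genes did not use. Of the 46 genes, 37 matched the RefSeq promoter table (GRCh38.p14), and the 250 bases before each start were read. Not matched were MCM4, MCM5, GINS4, POLD3, RPA2, E2F8, CCNE2, CCND1 and CDK2. The E2F motif was any of TTTGGCGC, TTTCCCGC, TTTCGCGC and TTTGCCGC on either strand. The sequences shown are of MCM6, with the most matches, MCM7, another gene of the ring, and E2F1 itself. Also shown are PCNA, the clamp, RFC3, a subunit of its loader, and ORC6, with no match and the largest rise with MPP in 3D. Capitals mark E2F matches, and all run 5′ to 3′ toward the start of the gene.

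MCM6, chr2:135876444-135876693, minus strand: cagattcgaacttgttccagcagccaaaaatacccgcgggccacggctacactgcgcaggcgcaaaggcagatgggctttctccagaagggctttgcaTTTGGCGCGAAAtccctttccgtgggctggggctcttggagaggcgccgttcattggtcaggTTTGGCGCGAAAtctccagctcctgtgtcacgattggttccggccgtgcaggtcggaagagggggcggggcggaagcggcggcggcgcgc
MCM7, chr7:100101398-100101647, minus strand: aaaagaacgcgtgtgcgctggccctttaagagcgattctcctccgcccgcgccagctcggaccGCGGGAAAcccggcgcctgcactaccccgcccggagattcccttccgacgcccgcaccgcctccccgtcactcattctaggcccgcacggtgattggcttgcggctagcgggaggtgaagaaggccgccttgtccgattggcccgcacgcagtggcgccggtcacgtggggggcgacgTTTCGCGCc
E2F1, chr20:33686386-33686635, minus strand: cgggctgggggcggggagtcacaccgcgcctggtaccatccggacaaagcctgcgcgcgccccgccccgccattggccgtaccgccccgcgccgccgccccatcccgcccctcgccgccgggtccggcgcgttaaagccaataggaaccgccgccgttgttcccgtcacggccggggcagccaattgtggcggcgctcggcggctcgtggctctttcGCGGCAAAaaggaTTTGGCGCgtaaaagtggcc
RFC3, chr13:33817899-33818148, plus strand: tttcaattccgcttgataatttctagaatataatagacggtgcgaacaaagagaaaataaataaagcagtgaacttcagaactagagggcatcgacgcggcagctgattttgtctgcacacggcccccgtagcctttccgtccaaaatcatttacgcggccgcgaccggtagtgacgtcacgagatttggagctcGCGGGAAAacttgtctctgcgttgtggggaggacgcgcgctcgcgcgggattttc
PCNA, chr20:5126623-5126872, minus strand: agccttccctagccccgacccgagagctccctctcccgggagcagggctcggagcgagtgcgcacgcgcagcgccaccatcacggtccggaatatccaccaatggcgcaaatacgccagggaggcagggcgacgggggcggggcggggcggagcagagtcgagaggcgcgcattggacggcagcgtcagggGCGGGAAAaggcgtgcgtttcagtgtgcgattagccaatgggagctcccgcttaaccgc
ORC6, chr16:46689409-46689658, plus strand: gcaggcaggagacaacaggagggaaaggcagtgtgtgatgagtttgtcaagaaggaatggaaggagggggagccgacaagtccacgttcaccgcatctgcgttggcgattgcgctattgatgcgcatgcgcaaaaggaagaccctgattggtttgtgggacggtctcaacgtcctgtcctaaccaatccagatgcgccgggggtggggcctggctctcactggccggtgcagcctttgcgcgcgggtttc

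In MCM6 the 4 matches form 2 places, each a pair of words on opposite strands that overlap by 4 bases, beginning 152 and 90 bases before the start. MCM7 has matches 187 and 9 bases before its start, and E2F1 has matches at 33 and 20 bases. RFC3 and PCNA hold the same word on the same strand, at 55 and 59 bases. In all, 15 of the 37 promoters (40.5%) held a match, against 2.8% of the 27305 promoters of the table and 3.9% of the 14773 that belong to genes of the deposited table. Besides the 5 shown, the genes with a match were CDT1, MCM3, GINS2, POLA1, POLA2, POLE, LIG1, TYMS, UHRF1 and E2F2. Median GC content was 68.0% in these promoters and 63.6% in those of the deposited genes, and the part of base composition in the shares was not tested. The cell cycle homology region (CHR, searched as TTTGAA on either strand), which marks many genes of mitosis, was in 1 of the 37 promoters (2.7%) and in 13 of 24 promoters of mitosis and G2/M genes (54.2%). The CCAAT box, searched as CCAAT on either strand, was in 20 of the 37 (54.1%) and in 33.9% of the deposited genes. A match is a string of letters and not evidence of binding.

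**Figure D1:**
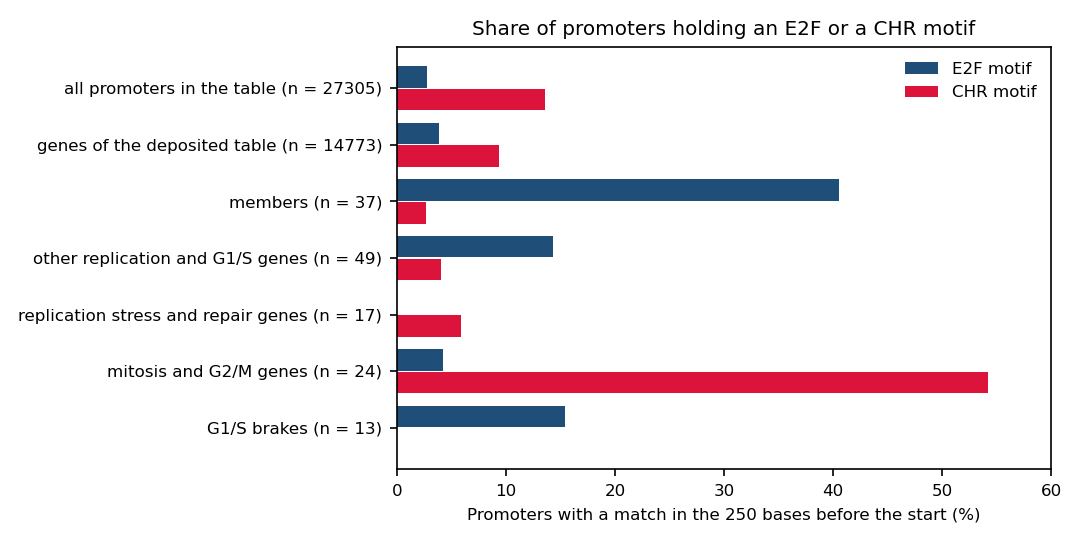
Share of promoters with an E2F or a CHR motif in the 250 bases before the start, in percent, for gene sets with the number of promoters in brackets. The E2F bar is longest for the 46 replication and G1/S genes (40.5% of the 37 promoters found) and the CHR bar for the mitosis and G2/M genes (54.2% of 24).

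Values below are normalised read counts, that is reads per gene divided by the size factor of the library, and lists of 4 values follow replicates 1 to 4. Libraries held 24589435 to 46359070 reads, and untreated 3D was the shallowest group (24589435 to 34658873). The fewest reads of any of the 46 genes in a library were 30, for E2F8. In GENCODE 29, 11 of the 46 share at least 10% of their exonic bases with another gene (CCND1, CCNE2, CDK2, GINS3, GINS4, MCM2, POLA2, POLD1, PRIM1, RRM2 and TYMS), and their counts are uncertain to that extent. For POLA2 (53.7%), RRM2 (27.9%), PRIM1 (26.0%) and POLD1 (12.1%) that gene lies on the same strand, which counting by strand could not separate. For the others it lies on the opposite strand, and the sources used here do not give whether counting used strand. Mitochondrially encoded mRNA took 7.719% to 11.616% of reads in untreated 2D and 3.296% to 6.845% in untreated 3D, but 0.791% to 0.949% and 1.041% to 1.523% with MPP in 2D and 3D. Of 12 dopamine-like markers, 7 could be looked up, and their summed normalised count in 2D was 5522 to 6090.0 untreated and 5398 to 5642 with MPP. In 3D it was 23283 to 25969 untreated and 13279 to 16704 with MPP. TH, SLC18A2, DDC, DRD2, PITX3 and LMX1B averaged 10 or more in every group, while NR4A2 averaged under 10 in each. Whether these levels meet the dopamine-like label was not tested. Of 11 noradrenergic markers, 10 could be looked up, and they summed to 468145 to 507268, 251643 to 288632, 345909 to 371288 and 202957 to 255582 in 2D and 3D untreated and then in 2D and 3D with MPP, an order kept for the next 3 lists. The 8 pan-neuronal markers summed to 113706 to 128577, 64602 to 73016, 121773 to 144807 and 65162 to 79697. The 10 mesenchymal markers summed to 16332 to 17145, 12911 to 13558, 16650 to 17803 and 10552 to 10773, with PRRX1 at 0 in 3 of the groups. The 8 Schwann and glial markers summed to 704 to 890.2, 900.6 to 989.4, 966.6 to 1126 and 801.6 to 1024, with SOX10 and OLIG2 averaging under 10 in every group. A sum follows its most abundant markers, and single markers differed by limma at an adjusted p under 0.05. Between untreated formats, 2 noradrenergic markers were higher in 3D and 6 lower, and 1 pan-neuronal marker was higher and 7 lower. With MPP in 3D, 1 dopamine-like marker rose and 3 fell. Of all genes tested, 46.1% were called between untreated formats and 34.6% with MPP in 3D. The part of these marker shifts in the results below was not tested. RNA of a bulk culture cannot tell fewer cycling cells from less of each mRNA per cell.

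In 2D, the replication genes fell with MPP almost as a block. Of the 46, 45 fell and 0 rose by limma at an adjusted p under 0.05, whereas 34.5% of all genes tested were called, 17.7% higher and 16.9% lower. None had a rise at an unadjusted p under 0.05, and edgeR and DESeq2 also called 0 higher and 46 lower. The median log2 change was -1.07, beside 0.020 over all genes. Of all genes called, 51.1% were higher, and 70.3% under equal library totals, where the median over all genes was 0.124 and 43 of the 46 still fell. Changes ran from -2.15 ± 0.22 (log2 change ± SE, n = 4 per group) for RRM2, the small subunit of ribonucleotide reductase, to -0.28 ± 0.090 for GINS4, a GINS subunit. POLD3, a subunit of polymerase delta, was the exception at -0.30 (adjusted p = 0.0503). For 45 of the 46 every MPP-treated value lay below every untreated one (19.0% of all genes did so, and 19.8% lay wholly above), POLE2 being the gene with overlap. GINS4 lost its call without MPP-treated 2D replicate 4 (-0.25, adjusted p = 0.0524) and under equal library totals (-0.18, adjusted p = 0.149).

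In 3D, MPP raised many of these genes and lowered few. By the same test 22 rose and 3 fell, against 17.0% of all genes higher and 17.6% lower (34.6% in either direction), and the median log2 change was 0.35 beside 0.003 over all genes. The 3 that fell were CCND1 (-1.23 ± 0.13), the cyclin D gene, RRM2 (-0.81 ± 0.22) and FEN1 (-0.33 ± 0.099), the flap nuclease of the lagging strand. The largest rises were in ORC6 (1.03 ± 0.19), GINS4 (0.90 ± 0.090), MCM6 (0.72) and E2F1 (0.70). Treated values lay wholly above untreated ones for 9 genes and wholly below for 2, where 13.5% and 14.1% of all genes did so. Of the 22 calls, 11 held in all 27 alternative analyses: ORC6, MCM2, MCM5, MCM6, MCM7, GINS1, GINS4, RFC4, RFC5, E2F1 and CDK2. The count depended on single libraries, with 14 higher without MPP-treated 3D replicate 3 and 33 without replicate 1. With both left out, 17 rose and 3 fell, and using only the 8 libraries of 3D culture, 13 rose. Equal library totals gave 29 higher and 2 lower, with 65.9% of all calls higher in place of 49.0%, and equal nuclear totals gave 27 and 3.

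The MPP effect differed between the culture formats in nearly the whole set. The difference of the effects (3D minus 2D), tested as an interaction, was called higher for 44 of 46 genes and lower for 0, against 15.3% of all genes called, 7.00% higher and 8.32% lower. Its median was 1.25 beside -0.019 over all genes. It was largest for CDC6 (2.59 ± 0.25, adjusted p = 1.19e-07), the licensing ATPase, and CDC45 (2.52 ± 0.28, adjusted p = 8.92e-07), part of the helicase. CCND1 (-0.47, adjusted p = 0.0802, unadjusted p = 0.015) and POLE2 (0.97, adjusted p = 0.0701) were not called. Without MPP-treated 3D replicate 3, CCND1 was called lower (-0.64, adjusted p = 0.00218) and 43 genes were called higher. Neither edgeR nor DESeq2 called a gene of the set lower, and both called 45 higher. Under equal nuclear totals 61.9% of all calls were higher in place of 45.7%, and 45 of the 46 were.

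**Figure D2:**
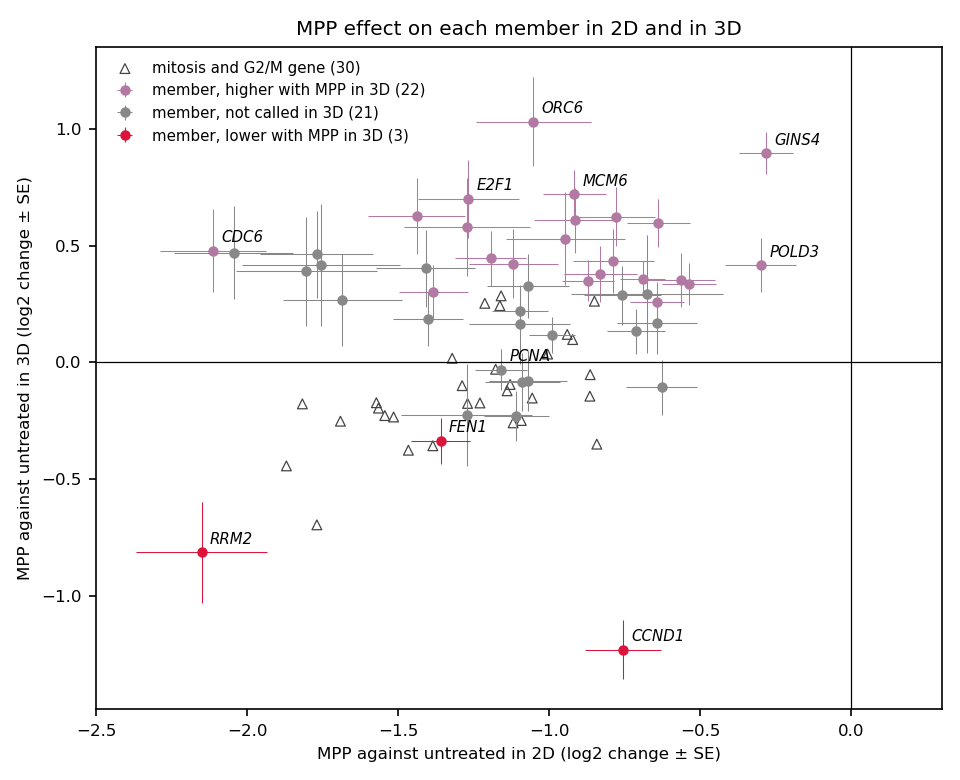
Log2 change with MPP in 2D (horizontal) against that in 3D (vertical) for each of the 46 genes, with bars of 1 SE, coloured by the call in 3D, with the 30 mitosis and G2/M genes as open triangles. All 46 genes lie left of 0 in 2D, while 37 lie above 0 in 3D, of which 22 were called higher.

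Without toxin, the set was lower in 3D than in 2D. Of the 46, 40 fell and 1 rose, CCND1 (0.62 ± 0.13), where 46.1% of all genes were called, 23.2% higher and 23.0% lower. The median was -0.71 beside 0.010 over all genes, and E2F8 (-1.75 ± 0.26) and CDC45 (-1.57 ± 0.20) stood lowest. Groups did not overlap in 40 genes lower and 1 higher, as in 20.3% and 19.4% of all genes. POLD3, CCNE1, RFC4, GMNN and RFC2 were not called. Under equal nuclear totals 40.3% of all calls were higher in place of 50.2%, with 42 of the 46 lower and 1 higher. With MPP on both sides the order turned: 37 of 46 were higher in 3D and 0 lower, against 19.0% and 19.9% of all genes (38.9% in either direction), with a median of 0.63 beside 0.009. The highest were CDC6 (1.26 ± 0.18) and ORC1 (1.15 ± 0.20), and UHRF1 had a change of 0.001 ± 0.13. No gene of the set was lower at an unadjusted p under 0.05, nor by edgeR or DESeq2. In 32 genes every MPP-treated 3D value lay above every MPP-treated 2D value, as in 18.5% of all genes. These comparisons share libraries with the MPP effects, so their values are set side by side and are not independent. Across group means, 40 genes were highest in untreated 2D, 5 in MPP-treated 3D (GINS4, MCM7, RFC4, RFC5 and POLD3) and CCND1 in untreated 3D, and 40 were lowest in MPP-treated 2D and 6 in untreated 3D.

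**Figure D3:**
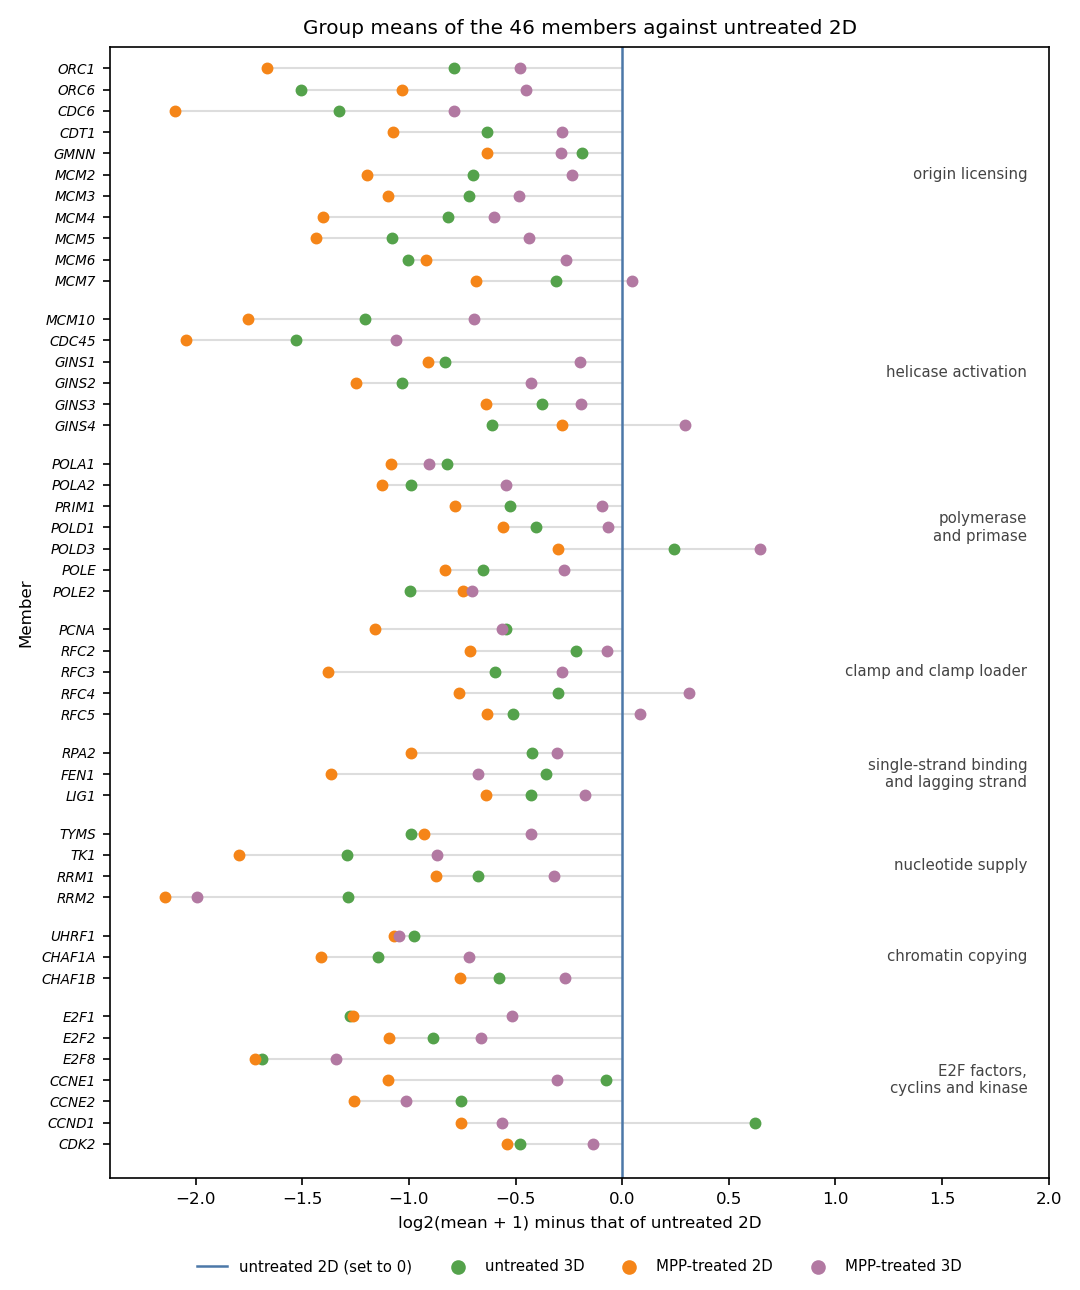
Group mean of each of the 46 genes as log2(mean + 1) minus that of untreated 2D (blue line at 0), by role, with 1 point per group of 4 libraries. The MPP-treated 2D point is leftmost for 40 genes, and the MPP-treated 3D point lies right of 0 for GINS4, MCM7, RFC4, RFC5 and POLD3.

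The level of the set in single libraries shows how even each group was. The level is the median over the 46 genes of a library's log2 value minus the gene's mean over the 16 libraries. It was 0.49 to 0.59 in untreated 2D, -0.26 to -0.076 in untreated 3D and -0.52 to -0.45 in MPP-treated 2D. The 4 MPP-treated 3D libraries stood at -0.18, 0.22, 0.51 and 0.057, a range of 0.68 where no other group exceeded 0.19. Replicate 3 was above the other 3 of its group in 41 of 46 genes (89.1%), against 27.8% of all genes, and in 30 of 30 mitosis and G2/M genes. Replicate 1 was below the others in 36 of 46, against 28.6% of all genes, and in 22 of the 30. The lowest MPP-treated 3D library was still above every MPP-treated 2D library, and its level overlapped that of untreated 3D. The median coefficient of variation over the 46 genes was 19.2% in MPP-treated 3D against 7.1%, 12.8% and 9.1% in untreated 2D, untreated 3D and MPP-treated 2D.

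The gap between the replication and the mitosis level shifted from group to group. For 30 mitosis and G2/M genes the same level was 0.86 to 1.02 in untreated 2D, -0.35 to -0.21 in untreated 3D and -0.43 to -0.24 in MPP-treated 2D. In MPP-treated 3D it was -0.78, -0.34, 0.073 and -0.42 in replicates 1 to 4. Both levels are centred on the mean over the 16 libraries, so the sign of their gap follows from the centring and only its shift between groups can be read. The replication level minus the mitosis level was 0.43 to 0.60 in MPP-treated and 0.024 to 0.17 in untreated 3D. In 2D it was -0.27 to -0.025 with MPP and -0.43 to -0.35 without, and no groups overlapped. Replicate 3 of MPP-treated 3D stood highest of its group in both sets and had the smallest such gap of its group, 0.43. In 2D, MPP lowered all 30 mitosis genes (median -1.20), where 16.9% of all genes were called lower and 17.7% higher. In 3D, 2 of 30 fell, MKI67 (-0.69 ± 0.16), the proliferation marker, and KIF20A (-0.36), and 0 rose by limma, edgeR or DESeq2, with none at an unadjusted p under 0.05. Their median in 3D was -0.16, where the replication genes had 0.35. The 2 that fell in 3D are 6.67% of the list, where 17.6% of all genes were called lower and 17.0% higher. The difference of effects was called higher for 28 of the 30, beside 7.00% of all genes. Without replicate 3, 11 of the 30 fell, without several other libraries 1 did, and without replicates 1 and 3 together, 5 fell.

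**Figure D4:**
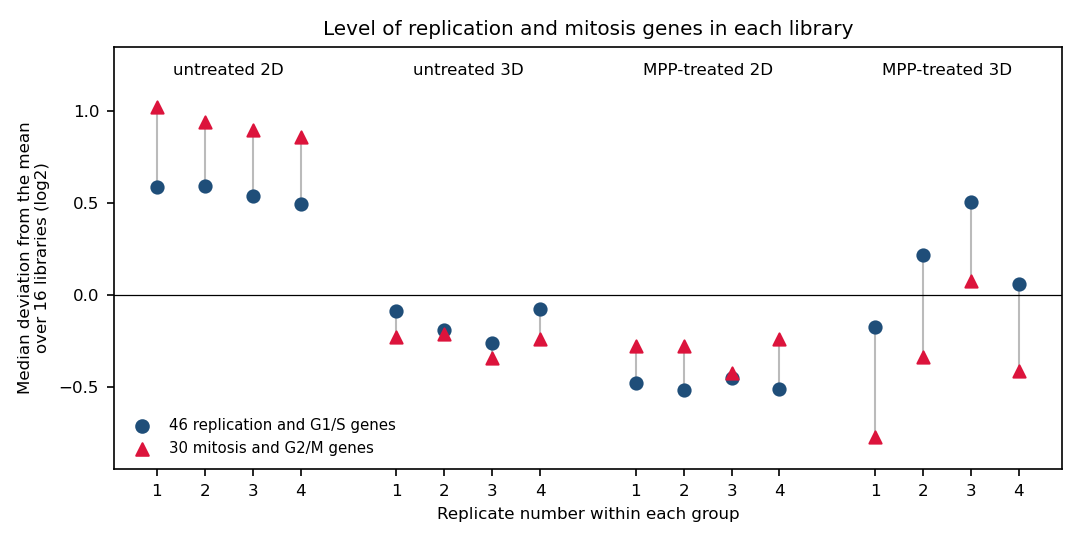
Level of the 46 replication and G1/S genes (circles) and of 30 mitosis and G2/M genes (triangles) in each of the 16 libraries, as the median log2 deviation from the mean over all libraries. Untreated 2D stands highest for both, and circle minus triangle, -0.43 to -0.35 there, is 0.43 to 0.60 in MPP-treated 3D. In MPP-treated 3D, replicate 1 is lowest and replicate 3 highest for both.

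Origin licensing genes, 11 in number, all fell with MPP in 2D, and 6 rose in 3D. Their median log2 change was -1.10 in 2D and 0.36 in 3D. CDC6, which with ORC brings MCM rings to DNA, stood at 1156, 1016, 985 and 1034 in untreated 2D and 292, 184, 264 and 238 with MPP. In 3D it stood at 364, 449.7, 413 and 440.0 untreated and 434, 507, 936 and 544 with MPP. MPP-treated 2D was lowest and untreated 2D highest without overlap, while MPP-treated 3D overlapped untreated 3D and spread from replicate 1 up to replicate 3. The fall in 2D was 4.33-fold (-2.11 ± 0.18, adjusted p = 5.83e-09). The rise in 3D (0.48, adjusted p = 0.0391) was lost without MPP-treated 3D replicate 3 (0.25, adjusted p = 0.193) or replicate 4 (0.51, 0.0529) and without untreated 3D replicate 1 (0.41, 0.0986) or replicate 3 (0.47, 0.0611). ORC1, the ATPase of the origin recognition complex, gave 317, 340.3, 340.1 and 337 in untreated 2D, 105, 80.0, 102 and 130.2 in MPP-treated 2D, 169, 168, 194 and 240.1 in untreated 3D and 166, 209.8, 351 and 227 in MPP-treated 3D. It fell in 2D (-1.69, adjusted p = 8.95e-07), while in 3D (0.27, adjusted p = 0.313) the treated libraries spread across the untreated ones. ORC6, the smallest subunit of the complex, was 540.2, 704, 808 and 531 in untreated 2D and 325, 384, 354 and 198 in MPP-treated 2D. It was 251, 230.1, 219 and 206 in untreated 3D and 373, 524, 597 and 392 in MPP-treated 3D. Every treated scaffold library exceeded every untreated one, a 2.04-fold rise (1.03 ± 0.19, adjusted p = 0.000211), and untreated 3D was the lowest group by mean. Its higher value in 3D with MPP (0.59, adjusted p = 0.0165) was lost without MPP-treated 2D replicate 4 (0.39, adjusted p = 0.0855) or MPP-treated 3D replicate 3 (0.47, 0.0678).

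The MCM2 to MCM7 genes encode the ring itself, and MCM7 and MCM3 had the most reads of the class. MCM7 stood at 6009, 6069, 6089.5 and 5883 in untreated 2D, 3758, 4059, 3714 and 3397 in MPP-treated 2D, 5134, 4426, 4433 and 5389 in untreated 3D and 5637, 6474, 6699 and 5997 in MPP-treated 3D. The treated scaffolds overlapped untreated 2D and lay wholly above untreated 3D (0.36 ± 0.075, adjusted p = 0.000761), while MCM7 fell in 2D (-0.69 ± 0.075, adjusted p = 3.36e-07). MCM3 stood at 5975, 5708, 5328 and 5055, 2674, 2559, 2710.4 and 2364, 3628, 3244, 3146 and 3368 and 3195, 4167, 4747 and 3647 in the same order of groups. It fell in 2D (-1.10, adjusted p = 8.8e-09) and its change in 3D was not called (0.22, adjusted p = 0.0714), but was without MPP-treated 3D replicate 1 (0.32, adjusted p = 0.00765) or untreated 3D replicate 1 (0.26, 0.0494). The other 4 ring genes fell in 2D by 0.92 to 1.44 on the log2 scale, and of them MCM2, MCM5 and MCM6 rose in 3D while MCM4 (0.18) was called only without MPP-treated 3D replicate 1 (0.32, adjusted p = 0.021). Geminin, GMNN, works the other way and holds back CDT1 once origins have fired. It gave 979.7, 1209.9, 1024 and 927 in untreated 2D, 695, 702, 686 and 588 in MPP-treated 2D, 890.0, 953, 765 and 1028 in untreated 3D and 737, 891, 1021 and 741 in MPP-treated 3D. MPP-treated 2D alone stood apart from the other groups, and its fall (-0.63, adjusted p = 0.000265) was the smallest of the class. Its difference between formats (0.52, adjusted p = 0.0366) lost its call without untreated 2D replicate 2 or 3, untreated 3D replicate 1 or 3, MPP-treated 2D replicate 3 or 4, or MPP-treated 3D replicate 2 or 3, at adjusted p of 0.0524 to 0.0887. Its higher value in 3D with MPP (0.33, adjusted p = 0.0288) did so without MPP-treated 2D replicate 4 or MPP-treated 3D replicate 2 or 3 (0.0709 to 0.119).

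Helicase activation genes, 6 in number, all fell with MPP in 2D and all differed between formats. MCM10, which helps the ring start to unwind, was 1118, 995, 989 and 1024 in untreated 2D and 318, 301, 369 and 233 in MPP-treated 2D. It was 484, 359, 533 and 409 in untreated 3D and 377, 649.8, 888 and 629 in MPP-treated 3D. CDC45, the partner of the ring in the active helicase, was 777, 711, 701 and 577 and 167, 142, 165 and 194 in 2D without and with MPP, and 314, 234, 156 and 252 and 251, 392, 428 and 253 in 3D. MCM10 fell 3.41-fold and CDC45 4.13-fold in 2D, with no overlap of groups. Their changes in 3D missed the threshold, at 0.46 (adjusted p = 0.0603) for MCM10 and 0.47 (adjusted p = 0.0691) for CDC45. Without MPP-treated 3D replicate 1 both were called, MCM10 at 0.69 (adjusted p = 0.00198) and CDC45 at 0.59 (0.0345). MCM10 was also called by edgeR (0.0345) and DESeq2 (0.0189), and without untreated 3D replicate 3 (0.55, 0.0347) or MPP-treated 2D replicate 4 (0.46, 0.0493). CDC45 was also called by DESeq2 (0.047) but not by edgeR, and without untreated 3D replicate 1 (0.61, 0.0215) or MPP-treated 3D replicate 4 (0.58, 0.0372). Under equal library totals both were called (0.0261 for MCM10 and 0.0292 for CDC45), and under equal nuclear totals MCM10 was (0.0453). GINS4 had another pattern, with 2323, 2320.2, 2334 and 2075 in untreated 2D, 1894, 1856, 1935 and 1749 in MPP-treated 2D, 1397, 1603, 1464 and 1460.2 in untreated 3D and 2225, 2895, 3262 and 2729.6 in MPP-treated 3D. Untreated 3D was its lowest group and MPP-treated 3D its highest, 1.86-fold above (0.90 ± 0.090, adjusted p = 8.9e-08). An antisense gene shares 21.2% of its exonic bases, and the use of strand in counting is not given. GINS1 and GINS2 also rose in 3D, GINS2 not without MPP-treated 3D replicate 2, 3 or 4 or untreated 3D replicate 1 or 2 (adjusted p of 0.0523 to 0.151). GINS3 was called in 3D only without MPP-treated 3D replicate 1 (0.32, adjusted p = 0.0452).

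Polymerase and primase genes make up 7 of the set, with a median log2 change of -0.79 in 2D and 0.38 in 3D. Of the 7, 6 fell with MPP in 2D, all but POLD3, and 5 rose in 3D. The rise of POLA2 was lost without untreated 3D replicate 2 or 3 or MPP-treated 3D replicate 3 (adjusted p of 0.0606 to 0.14). That of PRIM1 was lost without untreated 3D replicate 4 (0.0577) or MPP-treated 3D replicate 3 (0.0691). POLD1, the catalytic subunit of polymerase delta, stood at 3181, 3258, 2968 and 2824 in untreated 2D, 1886, 2250.3, 2267 and 1885 in MPP-treated 2D, 2495, 2271, 1704 and 2776 in untreated 3D and 2536, 3222, 2912 and 2990.1 in MPP-treated 3D. It fell 1.48-fold in 2D and rose 1.28-fold in 3D (adjusted p = 0.0193), the rise not called without untreated 3D replicate 3 (0.21, adjusted p = 0.0862) or MPP-treated 3D replicate 2 (0.30, 0.0645). POLE, the catalytic subunit of polymerase epsilon, stood at 2027, 2374, 2143 and 2445, 1198, 1153, 1347 and 1349, 1659.5, 1296, 1144 and 1621 and 1495, 1983, 2229.8 and 1728 in that order. Its rise in 3D (0.38, adjusted p = 0.0176) was lost without untreated 3D replicate 2 or 3 or MPP-treated 3D replicate 2 or 3, at adjusted p of 0.0512 to 0.0778. POLD3 was 731, 835, 689.5 and 698 in untreated 2D, 671, 561, 550.1 and 616 in MPP-treated 2D, 923, 911, 1016 and 649 in untreated 3D and 1137, 1078, 1234 and 1167 in MPP-treated 3D. All treated scaffolds exceeded every other library, and the rise in 3D was 1.34-fold (0.42 ± 0.12, adjusted p = 0.00776). Its 2 groups in 2D did not overlap either, yet the fall was called only without MPP-treated 2D replicate 1 (-0.36, adjusted p = 0.0379), untreated 3D replicate 3 (0.036) or untreated 3D replicate 4 (0.0138) among the libraries left out. Without untreated 3D replicate 4 POLD3 was also called higher in untreated 3D than in 2D (0.37, adjusted p = 0.00471). POLE2, an accessory subunit of polymerase epsilon and the gene of the class with the fewest reads, was 83.6, 198, 172 and 126 in untreated 2D and 98.5, 80.8, 80.2 and 84.5 in MPP-treated 2D. It was 56.0, 63.4, 75.8 and 94.0 in untreated 3D and 83.1, 98.2, 106 and 66.3 in MPP-treated 3D. Groups overlapped in every pair, and its fall in 2D (-0.68, adjusted p = 0.0408) was lost without replicate 2, 3 or 4 of either 2D group (adjusted p of 0.0563 to 0.156). Its difference between formats was called without untreated 2D replicate 1 (1.21, adjusted p = 0.0166) or untreated 3D replicate 4 (1.10, 0.0443).

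PCNA is the clamp that tethers polymerases to DNA, and the RFC complex opens it and sets it on the strand. PCNA was 1995, 1784, 1878 and 1844 in untreated 2D and 829, 812, 828 and 883 in MPP-treated 2D. It was 1264, 1235, 1378 and 1263 in untreated 3D and 1059, 1229, 1458 and 1319 in MPP-treated 3D. The fall in 2D was 2.23-fold (-1.16 ± 0.087, adjusted p = 1.14e-09), and in 3D the means were 1285 ± 63.5 and 1266 ± 167 (SD, n = 4; log2 change -0.030 ± 0.087). The 4 RFC loader genes all fell in 2D, and RFC3, RFC4 and RFC5 rose in 3D, RFC3 only barely (0.30, adjusted p = 0.0426) and not without MPP-treated 3D replicate 3 (0.20, adjusted p = 0.174) and not without untreated 2D replicate 1 or 3, untreated 3D replicate 1, 2 or 4 or MPP-treated 3D replicate 4 (0.0505 to 0.103). RFC2, another loader subunit, was 2197, 2069, 1934 and 1962 in untreated 2D, 1265, 1239, 1206 and 1261 in MPP-treated 2D, 1582, 1709.5, 1855 and 1884 in untreated 3D and 1524, 1981, 2329 and 1944 in MPP-treated 3D. MPP-treated 2D lay below every other group (-0.71 against untreated 2D, adjusted p = 6.63e-06), and the change in 3D was 0.13 (adjusted p = 0.309), called without MPP-treated 3D replicate 1 (0.24, adjusted p = 0.0299). Untreated values in 3D lay below those in 2D (-0.22, adjusted p = 0.0723), a difference called without MPP-treated 3D replicate 1 (adjusted p = 0.0257) or replicate 3 (0.0437). RFC4 was not called between untreated cultures (-0.30, adjusted p = 0.0528) and reached its highest mean in MPP-treated 3D. It was called lower in untreated 3D by edgeR (adjusted p = 0.0494) and DESeq2 (0.0412), under equal nuclear totals (-0.38, 0.0196), and without untreated 2D replicate 4, untreated 3D replicate 3 or 4 or MPP-treated 2D replicate 1 or 3 (0.0331 to 0.0454).

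Genes of the lagging strand and of single-stranded DNA fell in 2D and parted in 3D. FEN1, which trims the flaps of Okazaki fragments, was 2820.1, 2322, 2345 and 2306 in untreated 2D, 965, 890.2, 973 and 974 in MPP-treated 2D, 2041, 1941, 1763 and 1902 in untreated 3D and 1289, 1549, 1887 and 1394 in MPP-treated 3D. Its fall in 2D was 2.57-fold (-1.36 ± 0.099, adjusted p = 7e-10), and its smaller fall in 3D was lost without MPP-treated 3D replicate 1 (-0.26, adjusted p = 0.0504) and under equal library totals (-0.24, 0.071). The fall in 2D was the deeper by 1.03 on the log2 scale (adjusted p = 1.35e-05). LIG1, the ligase that seals the fragments, was 2693, 2703, 2553 and 2345, 1474, 1718, 1857 and 1558, 2119.8, 1869, 1639 and 2024 and 2249, 2405, 2397 and 2069.8 in the same order. It fell 1.56-fold in 2D and rose 1.2-fold in 3D (adjusted p = 0.0285), the rise not called without untreated 3D replicate 2 or 3 or MPP-treated 3D replicate 2 or 3 (adjusted p of 0.0601 to 0.106). RPA2, which coats single strands, fell in 2D (-0.99) and was not called in 3D (0.12, adjusted p = 0.256) except under equal library totals (0.21, adjusted p = 0.0351).

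Nucleotide supply split within 1 enzyme. Ribonucleotide reductase makes deoxynucleotides, with RRM1 as its large and RRM2 as its small subunit. RRM2 was 1892, 1816, 1723 and 1662 in untreated 2D and 348, 401, 392 and 458 in MPP-treated 2D. It was 740.0, 885, 584 and 698 in untreated 3D and 210.4, 492, 670.4 and 404 in MPP-treated 3D. This was the deepest fall of the set in 2D, 4.44-fold (adjusted p = 1.06e-07), and RRM2 fell in 3D as well, 1.75-fold (adjusted p = 0.00557), although the 3D groups overlapped and replicate 3 alone reached the untreated range. RRM1 was 2883, 2719, 2599 and 2638 in untreated 2D, 1492, 1393, 1543 and 1492 in MPP-treated 2D, 1649, 1637, 1948 and 1553 in untreated 3D and 2075, 1912, 2582 and 2103 in MPP-treated 3D. RRM1 fell in 2D (-0.87) and rose in 3D (0.35 ± 0.087, adjusted p = 0.00341). TYMS, thymidylate synthase, and TK1, thymidine kinase, fell in 2D (-0.95 and -1.80). In 3D TYMS was at the threshold (0.53, adjusted p = 0.0427), and lost its call (adjusted p of up to 0.148) without any single replicate of untreated 2D, untreated 3D replicate 2 or 4 or MPP-treated 3D replicate 2 or 3. TYMS shares 58.2% of its exonic bases with the antisense gene ENOSF1, and RRM2 shares 27.9% with a gene on its own strand. TK1 (0.39, adjusted p = 0.205) was called in 3D only without MPP-treated 3D replicate 1 (0.62, 0.0353).

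Chromatin copying genes fell in 2D, all 3 of them, and none was called in 3D. UHRF1, which carries DNA methylation over to the new strand, was 1628, 1784, 1779.6 and 1613 in untreated 2D, 806, 784, 827 and 816 in MPP-treated 2D, 1074, 818, 714 and 846 in untreated 3D and 623, 867, 1059 and 747 in MPP-treated 3D. Untreated 2D stood alone at the top and the other 3 groups overlapped, with changes of -1.07 (adjusted p = 1.27e-06) in 2D and -0.078 (adjusted p = 0.678) in 3D. CHAF1A, the large subunit of the assembly factor that places histones on new DNA, was 1448, 1461, 1290.3 and 1305, 514, 500.4, 500.0 and 553, 784, 575, 472 and 656 and 557, 895, 1152 and 742 in that order. It fell in 2D (-1.41, adjusted p = 7.38e-07), and its change in 3D (0.40, adjusted p = 0.0601) was called by edgeR (adjusted p = 0.048) and DESeq2 (0.0299) and without MPP-treated 3D replicate 1 (0.58, 0.00445) or untreated 3D replicate 1 (0.52, 0.0183). CHAF1B, its partner, was at -0.76 in 2D and 0.29 (adjusted p = 0.0861) in 3D. It was called higher in 3D without MPP-treated 3D replicate 1 (0.38, adjusted p = 0.03) or untreated 3D replicate 3 (0.36, 0.0418), under equal library totals (0.38, 0.0242) and under equal nuclear totals (0.33, 0.0468).

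E2F factors, cyclins and CDK2 are the switch upstream of the rest. E2F1, an activator, was 2508, 2390.1, 2257 and 2261 in untreated 2D and 894, 914, 1082 and 1026 in MPP-treated 2D. It was 974, 906, 827 and 1181 in untreated 3D and 1032, 1929, 2310.3 and 1309.6 in MPP-treated 3D. Untreated 3D and MPP-treated 2D shared a low range, and the treated scaffolds ran from that range at replicate 1 to the foot of the untreated 2D range at replicate 3. E2F1 fell 2.41-fold in 2D (adjusted p = 4.39e-06) and rose 1.63-fold in 3D (0.70 ± 0.17, adjusted p = 0.00233). E2F8, a repressor of the family, was 243, 301, 229 and 192 in untreated 2D, 105, 51.2, 71.3 and 61.6 in MPP-treated 2D, 97.1, 96.3, 42.1 and 61.1 in untreated 3D and 93.9, 96.4, 108 and 79.2 in MPP-treated 3D. Untreated 2D was again alone at the top, and the change in 3D was not called (0.42, adjusted p = 0.233). CDK2, the kinase of cyclin E, was 2037, 1851, 1784 and 1747, 1319.5, 1326, 1208 and 1253, 1447, 1281, 1197 and 1393 and 1585, 1841, 1882 and 1436 in the same order. It fell 1.45-fold in 2D and rose 1.26-fold in 3D (adjusted p = 0.00561).

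CCND1, the D cyclin that senses growth signals in G1, broke the pattern. It was 11580.4, 11125, 10193 and 10388 in untreated 2D and 6533, 5836, 6845 and 6415 in MPP-treated 2D. It was 16862, 17801, 16288 and 15603 in untreated 3D and 4989.7, 7147, 10107 and 7045 in MPP-treated 3D. Untreated 3D lay above untreated 2D (0.62 ± 0.13, adjusted p = 0.000347), and both treated groups lay below both untreated ones. CCND1 fell 1.69-fold in 2D (adjusted p = 7.35e-05) and 2.34-fold in 3D (-1.23 ± 0.13, adjusted p = 1.14e-07). Its groups with MPP overlapped (0.15, adjusted p = 0.369), and without MPP-treated 3D replicate 1 the 3D value was called higher (0.32, adjusted p = 0.015). The other cyclins and E2F2 fell in 2D, and none of CCNE1 (-0.23), CCNE2 (-0.23) and E2F2 (0.16) was called in 3D, E2F2 being called higher without MPP-treated 3D replicate 1 (0.39, adjusted p = 0.0213).

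**Figure D5:**
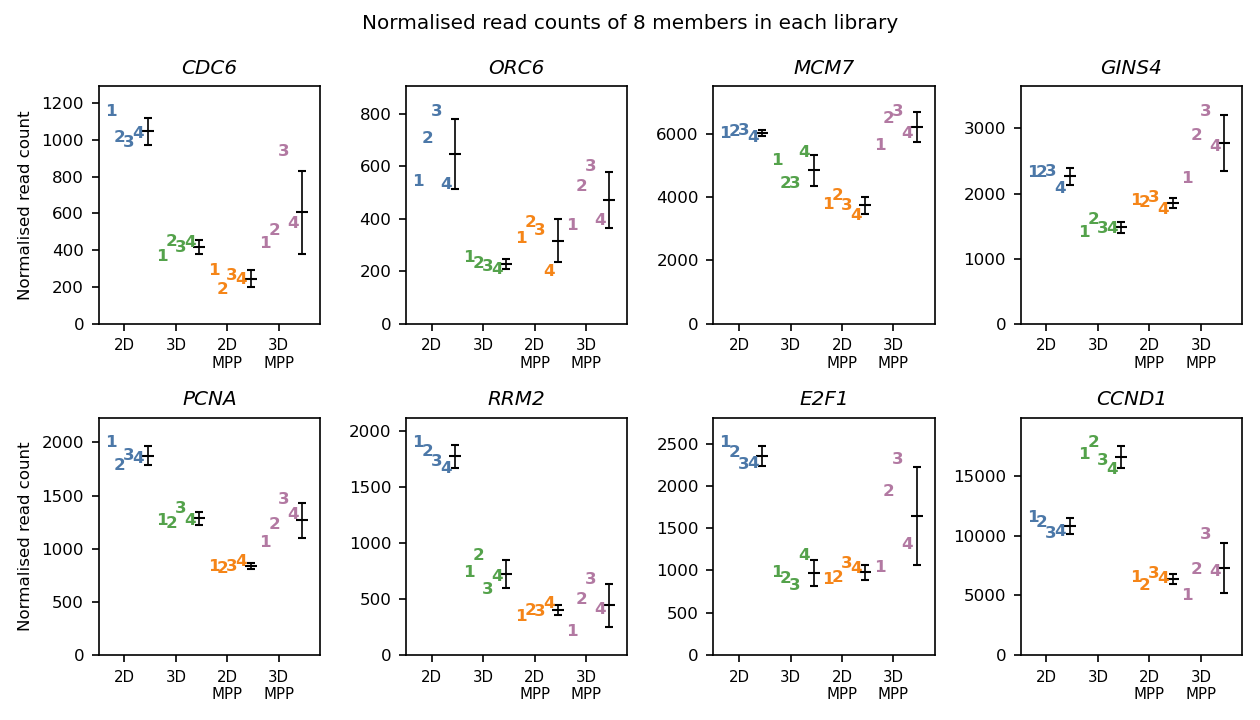
Normalised read counts of CDC6, ORC6, MCM7, GINS4, PCNA, RRM2, E2F1 and CCND1 in each library, drawn as replicate numbers by group, with the mean and a bar of 1 SD beside each group (n = 4). MPP-treated 3D has the widest spread in most panels, with replicate 3 at the top, and CCND1 has its highest values in untreated 3D.

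Whether a promoter held an E2F match was set beside the MPP effect in 3D. Of the 22 genes that rose, 18 had a promoter, and 9 of these held a match, as for MCM6, MCM7, E2F1 and RFC3 above. Of the 24 others, 19 had a promoter and 6 held one, as for PCNA. ORC6, with no match in its window, had the largest rise. No test was made of these counts.

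Other genes of replication and G1/S were called in part. In 2D, 36 of 59 fell with MPP and 4 rose, and in 3D 20 rose and 4 fell. These are 67.8% and 40.7% of the list, where 34.5% and 34.6% of all genes were called. The share called in either direction in 3D was thus near that of all genes. By direction the list and all genes differed in 3D, since 17.0% of all genes were higher and 17.6% lower. The median change of the list in 3D was 0.19, beside 0.003 over all genes. The difference of effects was called higher for 34 and lower for 2, or for 0 or 1 without any single library other than untreated 3D replicate 1 or 3 or MPP-treated 3D replicate 2, beside 15.3% of all genes called. The largest falls in 2D were in the histone chaperone ASF1B (-1.84 ± 0.20) and in DTL (-1.79 ± 0.16), which directs CDT1 to destruction, and RRM2B (0.61 ± 0.097), a small subunit of ribonucleotide reductase that p53 induces, rose. In 3D the fork protein TIMELESS (0.96 ± 0.067, adjusted p = 2.39e-10) and the clamp loader subunit DSCC1 (0.99 ± 0.19) rose most, and RNASEH2C (-0.58 ± 0.098) fell. Untreated 3D had 31 of the 59 lower and 7 higher than untreated 2D (64.4% called, and 46.1% of all genes), E2F7 (-2.11 ± 0.27), a repressor, being lowest and CCND2 (0.87 ± 0.23), another D cyclin, highest. With MPP, 33 were higher in 3D and 2 lower, POLD4 (-0.61) and TFDP1 (-0.47), or 4 lower without MPP-treated 3D replicate 3 (59.3% called, and 38.9% of all genes).

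Genes that hold cells in G1 were called in both directions. In 2D, 5 of 14 brakes rose with MPP and 3 fell, and in 3D 3 rose and 2 fell. These are 57.1% and 35.7% of the list, the second near the 34.6% of all genes called in 3D and the first above the 34.5% called in 2D. The count lower in 2D was 1 without untreated 2D replicate 2 or 3 or MPP-treated 2D replicate 3, and that in 3D was 5 without untreated 3D replicate 4 and 4 without MPP-treated 3D replicate 1. CDKN1A, the p21 inhibitor, rose in both formats (0.96 ± 0.073 in 2D and 1.02 ± 0.073 in 3D, with a difference of 0.058 ± 0.10, adjusted p = 0.766), and CDKN2B rose too (1.22 ± 0.26 and 1.59 ± 0.26). CDKN1C, the p57 inhibitor, was 133, 139.8, 83.2 and 82.6 in untreated 2D, 103, 95.2, 92.4 and 95.9 in MPP-treated 2D, 3369, 4625, 2647 and 5155 in untreated 3D and 780.1, 645, 394 and 550.3 in MPP-treated 3D. Both scaffold groups lay far above both dish groups, and MPP lowered CDKN1C 6.63-fold in 3D (-2.73 ± 0.21, adjusted p = 1.56e-09). Untreated 3D stood 35.6-fold above untreated 2D (5.15 ± 0.21). CDKN1B, the p27 inhibitor, was higher in untreated 3D than in 2D (0.36 ± 0.070) and rose with MPP in 2D (0.33 ± 0.070) but was not called in 3D (0.084 ± 0.070), a difference that itself was not called (adjusted p = 0.107). In untreated culture 5 brakes were higher and 5 lower in 3D (3 lower without untreated 2D replicate 4 or untreated 3D replicate 1, and 2 without untreated 3D replicate 4), and with MPP 5 were higher and 2 lower. The difference of effects was called higher for RBL1 (1.09 ± 0.21) and lower for CDKN1C and BTG2 (-1.22 ± 0.14). Of the 14 brakes, 71.4% were called between untreated formats, 50% between formats with MPP and 21.4% for the difference. The shares of all genes were 46.1%, 38.9% and 15.3%.

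Genes of replication stress and repair, which guard forks and mend breaks, fell in 2D. Of 20, 18 fell with MPP in 2D and 0 rose by limma, edgeR or DESeq2, with none at an unadjusted p under 0.05. Of all genes, limma called 16.9% lower and 17.7% higher in 2D, and 17.6% and 17.0% in 3D. In 3D 11 rose and 0 fell by limma, edgeR or DESeq2, with 1 falling at an unadjusted p under 0.05 and 1 called lower without untreated 3D replicate 4. BRCA1, a mediator of recombination, fell in 2D (-1.54 ± 0.16) and had the largest difference between formats (2.37 ± 0.23). Untreated 3D had 16 of the 20 lower than untreated 2D, where 23.0% of all genes were lower. With MPP 14 were higher in 3D, beside 19.0% of all genes. The difference of effects was called higher for 17, beside 7.00% of all genes. Of the promoters of these 20 genes 17 were found, and 0 held an E2F match, where 3.9% of promoters of the deposited genes did. A match was in 7 of 49 promoters (14.3%) of the other replication and G1/S genes and in 40.5% of those of the 46.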

How the data were processed

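Poly-A selected RNA of 16 SH-SY5Y libraries, 4 per group by title, was sequenced. The authors deposited a normalised signal per gene, which from its values is the read count divided by 1 size factor per library. Build GRCh38.p13 and the tools STAR, featureCounts, DESeq2, FastQC and CASAVA 1.8.2 are named in the submitters' processing notes. The sources used here do not give kit strandedness or counting settings. Each deposited value was a whole multiple of 1 step per library within 0.01 reads (100% of values), so whole reads were recovered. Over 24 pairs of libraries in a group, the chi-square per degree of freedom was at least 6.58, so no library was a copy of another. Depth limits precision, and without molecular identifiers, reads do not count independent molecules.

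The values were tested as log2(value + 1) with limma 3.58.1 (R 4.3.3) and its mean-variance trend, all 16 libraries in 1 fit of the 4 groups. The 16984 genes tested reached 10 in 4 or more libraries. Calls needed a p under 0.05 after Benjamini-Hochberg adjustment over all genes, and changes of genes with few reads are understated on this scale. The tests were run on simulated data first, with changes set in MPP-treated 2D. Of the 16741 genes run, 48 to 50 were changed at each of 1.5, 2.0, 3.0 and 4.0-fold. That share is far below the share called in the data, so the simulated rates may not carry over to them. In the simulation limma recovered 58.0% of genes changed 1.5-fold and 87.8% of those changed 2.0-fold. False calls made up 5.99% of its calls, 5.36% of those of edgeR and 17.17% of those of DESeq2. Calls made by DESeq2 alone are therefore the less certain. The alternatives were DESeq2 1.42.0 and the quasi-likelihood test of edgeR 4.0.16 on recovered reads, equal library totals, equal totals without mitochondrial genes (equal nuclear totals), pseudocounts of 0.5 and 5, all genes without a filter, genes whose mean reached 50, only the groups compared, a replicate block and each library left out. Leaving out MPP-treated 3D replicates 1 and 3 together was chosen after seeing the data. Promoters were taken from RefSeq (GRCh38.p14) and overlaps from GENCODE 29. No coordinates of the deposited values were used.

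The genes and the lists (8 roles, 4 related pathways and 5 marker lists) were chosen with earlier results of these data known. Library values are printed for 25 genes: the 2 of each role with the highest mean, the 2 highest and 2 lowest changes of each comparison, genes called against the direction of most, and CCND1, E2F1, CDK2 and GMNN. Others are named with changes only. Of other pathways, the 2 highest and 2 lowest called changes per comparison could be named, and MKI67, CDKN1A and CDKN1B. The largest rises among repair genes in 3D are not reported here. The markers SLC6A3, ALDH1A1, FOXA2, LMX1A, EN1 and CHGA were not analysed here.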

Additional observations from a re-analysis of the deposited data

Results flagged for a closer look

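Of 188 groups of 4 values tested for a lone high or low library, 9 were marked. Chance alone would mark about 1 in 20, so the count was about what chance would give. Values are normalised read counts. The mark weighs the gap to the nearest value against the range of the 4 values, so a marked difference can be small. Marked as lowest of their group were ORC1 in untreated 2D replicate 1 (317) and GMNN in MPP-treated 2D replicate 4 (588). So were GINS3 in MPP-treated 3D replicate 1 (383), MCM6 in untreated 3D replicate 4 (1198) and GINS4 in untreated 2D replicate 4 (2075). FEN1 in MPP-treated 2D replicate 2 (890.2) and CHAF1B in the same library (376) were also marked as lowest. Marked as highest were FEN1 in untreated 2D replicate 1 (2820.1) and RFC5 in MPP-treated 3D replicate 3 (1257). Of these 9, 2 fell in MPP-treated 3D, 1 in its replicate 1 and 1 in its replicate 3, and the levels of the whole set in that group held no lone library by this measure.

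The MPP effect differed between 3D and 2D, by the interaction in limma at an adjusted p under 0.05, for 44 genes. The difference on the log2 scale (3D minus 2D), among licensing genes, was 1.95 for ORC1, 2.08 for ORC6, 2.59 for CDC6, 1.40 for CDT1, 0.52 for GMNN, 1.64 for MCM2, 1.32 for MCM3, 1.59 for MCM4, 2.07 for MCM5, 1.64 for MCM6 and 1.05 for MCM7. Among helicase activation genes it was 2.23 for MCM10, 2.52 for CDC45, 1.52 for GINS1, 1.85 for GINS2, 0.81 for GINS3 and 1.18 for GINS4. Polymerase and primase genes had 1.01 for POLA1, 1.54 for POLA2, 1.22 for PRIM1, 0.92 for POLD1, 0.72 for POLD3 and 1.21 for POLE. The clamp and its loader had 1.13 for PCNA, 0.85 for RFC2, 1.69 for RFC3, 1.40 for RFC4 and 1.24 for RFC5. For the lagging strand and single-strand binding it was 1.11 for RPA2, 1.03 for FEN1 and 0.90 for LIG1. Genes of nucleotide supply had 1.48 for TYMS, 2.20 for TK1, 1.22 for RRM1 and 1.34 for RRM2. Genes of chromatin copying had 0.99 for UHRF1, 1.81 for CHAF1A and 1.05 for CHAF1B. Among E2F factors, cyclins and CDK2 it was 1.97 for E2F1, 1.26 for E2F2, 2.17 for E2F8, 0.88 for CCNE1, 1.05 for CCNE2 and 0.87 for CDK2. All 44 are positive, that is less negative or more positive in 3D.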

How the results depend on the processing

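No change of setting reversed a called gene of the 46. Of the 1242 values per comparison (46 genes in 27 alternatives), 10 lost and 8 gained a call for MPP in 2D, 58 and 41 for MPP in 3D, 4 and 15 for untreated 3D against 2D, 7 and 8 for 3D against 2D with MPP, and 12 and 7 for the difference of effects. The effect in 3D is therefore the comparison whose calls depend most on the choices. With a single library left out, the genes of the set called higher with MPP in 3D ranged from 14 (without MPP-treated 3D replicate 3) to 33 (without replicate 1). Using only the groups compared, 13 were higher and 16 were called in either direction. The median change of the 46 in 3D ranged from 0.24 to 0.42 with a library left out, and that in 2D from -1.10 to -1.03. Genes of the set called higher in untreated 3D against 2D ranged from 1 to 2, and genes with a lower difference of effects from 0 to 1, with 1 also when MPP-treated 3D replicates 1 and 3 were left out together.

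Among the other lists, the brakes lower in 2D were 1 under equal library totals, 5 with only the groups compared and 1 to 4 with a library left out. Brakes lower in 3D were 2 to 5, and those lower in untreated 3D against 2D were 2 to 5, with 3 when only the groups compared were used. Mitosis genes lower with MPP in 3D were 1 under equal library totals, equal nuclear totals, only the groups compared and edgeR, 1 to 11 with a library left out, and 5 without MPP-treated 3D replicates 1 and 3. Mitosis genes higher in 3D were 1 under equal library totals and 0 to 1 with a library left out. With MPP, mitosis genes higher in 3D than in 2D were 1 by DESeq2 and 0 to 3 with a library left out, and those lower were 3 to 9. Repair genes lower with MPP in 3D were 0 to 1, and 1 without replicates 1 and 3. Other replication genes lower in 3D were 2 under equal library totals. Those lower in 3D against 2D with MPP were 2 to 4, and those with a lower difference of effects were 0 under equal nuclear totals, 0 without replicates 1 and 3 and 0 to 2 with a library left out. The cause of these shifts was not tested. Where a library was left out, fewer samples entered the fit.

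Replicate numbers were checked for pairing. Over 24 same-numbered pairs the correlation of deviations from the group means ran from -0.115 to 0.09, and 0 exceeded 0.1. Each of these 24 was set against the other libraries of the second group, and in 5 the same number correlated best. No pairing by number was seen, which does not exclude one. With a replicate block the genes of the set called were 45 lower in 2D, 22 higher and 3 lower in 3D, 1 higher and 40 lower in untreated 3D, 37 higher with MPP and 44 for the difference, the same counts as without it, and mitosis genes lower with MPP in 3D were 1.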
